A study of Mus musculus with 4 samples.

Results

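The members are 5 autosomal genes, Eps8l1, Slc15a2, Prdm16, Trat1 and Zbtb20, whose counts of unique molecular identifiers (UMIs) parted 2 donor genotypes in more than the CD8+ T cells (Tc). They were picked by symbol from the 32285 genes counted, because earlier results of the same libraries had shown them apart between the genotypes. Their genotype values are therefore given as a description, with no test. The data were single-cell RNA counts of spleen cells from 4 BALB/c recipient mice, 1 library per mouse. The recipients were irradiated, given 10000 cells of the WEHI-3B acute myeloid leukemia line and C57BL/6 bone marrow, and on day 2 given 200000 donor Tc. Spleens were taken on day 23, and cells were enriched with a pan-Tc kit and stained with a tagged antibody to the donor H2-Kb. In 2 mice the marrow and Tc came from Havcr2fl/fl donors, which carry Havcr2 (TIM-3) alleles flanked by loxP sites and served as controls. In the other 2 they came from Havcr2fl/fl;E8icre/+ donors, which carry the same floxed alleles and in addition a Cre driven by the E8I enhancer of Cd8a. This Cre is meant to act in mature CD8+ Tc, so CD4+ Tc, erythroid, myeloid and B cells of the same mice serve as cells in which Havcr2 is not meant to be deleted. The labels do not give the age of each mouse or whether the donors of a genotype were littermates.

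The members have no common pathway. Eps8l1 encodes a relative of the actin regulator EPS8, and Slc15a2 encodes PEPT2, a proton-coupled transporter of small peptides. Prdm16 and Zbtb20 encode zinc finger transcription factors, the former known from brown fat and blood stem cells and the latter from liver and plasma cells. Trat1 encodes TRIM, a transmembrane adaptor that is bound to the T cell receptor complex and is known from T cells.

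Positions are from GENCODE M21 on GRCm38, the build called mm10. Eps8l1 (ENSMUSG00000006154) lies on the plus strand of chromosome 7 from 4460674 to 4480487. Prdm16 (ENSMUSG00000039410) lies on the minus strand of chromosome 4 from 154316125 to 154636873. The other members lie on chromosome 16: Slc15a2 (ENSMUSG00000022899) on the minus strand from 36750177 to 36784962, Zbtb20 (ENSMUSG00000022708) on the plus strand from 42875881 to 43642602, and Trat1 (ENSMUSG00000030775) on the minus strand from 48730774 to 48772021. The start sites of Slc15a2 and Zbtb20 are 6.09 Mb apart, and those of Zbtb20 and Trat1 are 5.90 Mb apart. Havcr2 lies on chromosome 11, which holds no member. Eps8l1, Prdm16 and Zbtb20 overlap other counted genes, all of them annotated on the opposite strand.

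The promoters are shown because Eps8l1 and Slc15a2 shared a direction in Tc and erythroid cells, as did Prdm16 and Zbtb20. Their levels across the classes of cells were not all alike, and a role of the promoters was not tested. The sequences are RefSeq windows on GRCm38.p6, from 250 bases before to 50 bases after the start site, on the strand of the gene, and all 5 members have one. For Eps8l1 the first of several annotated starts is shown. Capitals mark matches on either strand to the RUNX motif TGTGGT, the GATA motif AGATAA, the TCF/LEF motif CTTTGA, the ETS motif GGAAGT and the CCAAT box, spelled CCAAT.
Eps8l1, chr7:4460447-4460746, plus strand: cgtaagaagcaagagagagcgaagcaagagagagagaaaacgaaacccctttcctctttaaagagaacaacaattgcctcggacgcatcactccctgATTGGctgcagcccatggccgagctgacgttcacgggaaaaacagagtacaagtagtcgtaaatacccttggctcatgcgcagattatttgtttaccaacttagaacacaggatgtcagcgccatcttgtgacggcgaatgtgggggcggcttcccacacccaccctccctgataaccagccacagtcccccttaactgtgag
Slc15a2, chr16:36784913-36785212, minus strand: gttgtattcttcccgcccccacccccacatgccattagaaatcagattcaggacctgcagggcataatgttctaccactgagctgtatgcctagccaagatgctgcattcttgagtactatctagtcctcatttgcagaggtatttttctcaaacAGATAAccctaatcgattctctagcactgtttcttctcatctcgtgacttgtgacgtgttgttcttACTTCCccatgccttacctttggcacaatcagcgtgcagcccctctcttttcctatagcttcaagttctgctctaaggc
Prdm16, chr4:154636824-154637123, minus strand: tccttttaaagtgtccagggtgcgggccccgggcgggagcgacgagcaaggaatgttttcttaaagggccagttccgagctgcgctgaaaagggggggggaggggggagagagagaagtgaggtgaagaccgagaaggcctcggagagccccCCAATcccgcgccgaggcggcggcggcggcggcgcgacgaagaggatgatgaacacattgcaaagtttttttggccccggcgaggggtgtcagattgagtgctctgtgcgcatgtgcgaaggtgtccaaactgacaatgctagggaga
Zbtb20, chr16:43247034-43247333, plus strand: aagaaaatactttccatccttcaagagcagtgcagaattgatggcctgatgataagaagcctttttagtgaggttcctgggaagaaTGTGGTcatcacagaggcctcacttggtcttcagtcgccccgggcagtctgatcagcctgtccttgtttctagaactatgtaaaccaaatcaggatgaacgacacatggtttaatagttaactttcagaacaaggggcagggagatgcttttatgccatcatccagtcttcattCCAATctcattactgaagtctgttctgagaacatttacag
Trat1, chr16:48772013-48772312, minus strand: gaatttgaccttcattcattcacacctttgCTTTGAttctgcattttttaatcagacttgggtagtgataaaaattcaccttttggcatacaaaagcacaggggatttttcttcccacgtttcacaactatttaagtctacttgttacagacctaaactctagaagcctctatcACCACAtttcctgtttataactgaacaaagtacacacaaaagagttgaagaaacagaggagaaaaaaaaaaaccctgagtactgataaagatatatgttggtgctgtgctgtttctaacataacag
None of the 5 motifs was in all windows. Eps8l1 held 1 CCAAT box, as did Prdm16, and Slc15a2 held 1 GATA and 1 ETS match. Zbtb20 held 1 RUNX match and 1 CCAAT box, and Trat1 held 1 RUNX and 1 TCF/LEF match. Of 32851 RefSeq windows of this length, 16.8% held the RUNX letters, 11.2% GATA, 16.0% TCF/LEF, 23.8% ETS and 37.4% the CCAAT box. A further Eps8l1 window, at a start 4.18 kb downstream and not printed, held a GATA match. The Zbtb20 window lies 371 kb inside the annotated gene, at a downstream start, so it does not show the first promoter of the longest form.

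The libraries held 1511 to 6737 barcodes with 17693991 to 55045903 gene UMIs, and libraries shared 1 to 6 barcodes in pairs. After filtering, 487 to 1539 CD8+ Tc, 241 to 629 CD4+ Tc, 214 to 1910 erythroid-like, 119 to 192 myeloid-like and 2 to 63 B-like cells remained per library. Although the samples are labelled T cells, the other lineages were present and were kept because they carry the comparison. All 7 Tc markers were raised in each of the 11 T clusters. The donor tag did not part the lineages: 2 to 11 erythroid-like cells per library had a tag level far below the median of their library. Havcr2, the targeted gene, was checked first. In CD8+ Tc it was at 61.2 and 7.83 UMIs per 1000000 UMIs of the class (CPM) in the libraries labelled Havcr2fl/fl;E8icre/+ replicates 1 and 2, and at 54.7 and 114 CPM in Havcr2fl/fl replicates 1 and 2. The library labelled Havcr2fl/fl;E8icre/+ replicate 1 thus held Havcr2 RNA at a control level, and fold changes are also given without it. In CD4+ Tc the libraries of the genotypes overlapped, at 55.6 and 28.9 CPM against 16.8 and 48.9 CPM. Floxed transcripts can still be counted at their 3′ end, so the count does not measure the protein. It also does not show whether Havcr2 was deleted in a library or whether a label is right. The Y-linked genes Ddx3y, Eif2s3y, Kdm5d and Uty were present in all 4 libraries, with log2 fold changes in CD8+ Tc from -0.10 to -0.06. Kdm5d did not overlap in myeloid-like cells, at 3.25 and 1.73 CPM against 10.3 and 9.74 CPM. Xist failed the filter on low counts in the 3 fits, with 4, 8, 0 and 0 UMIs in CD8+ Tc and 5, 3, 0 and 1 UMIs in erythroid-like cells, where the groups did not overlap.

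**Figure D1:**
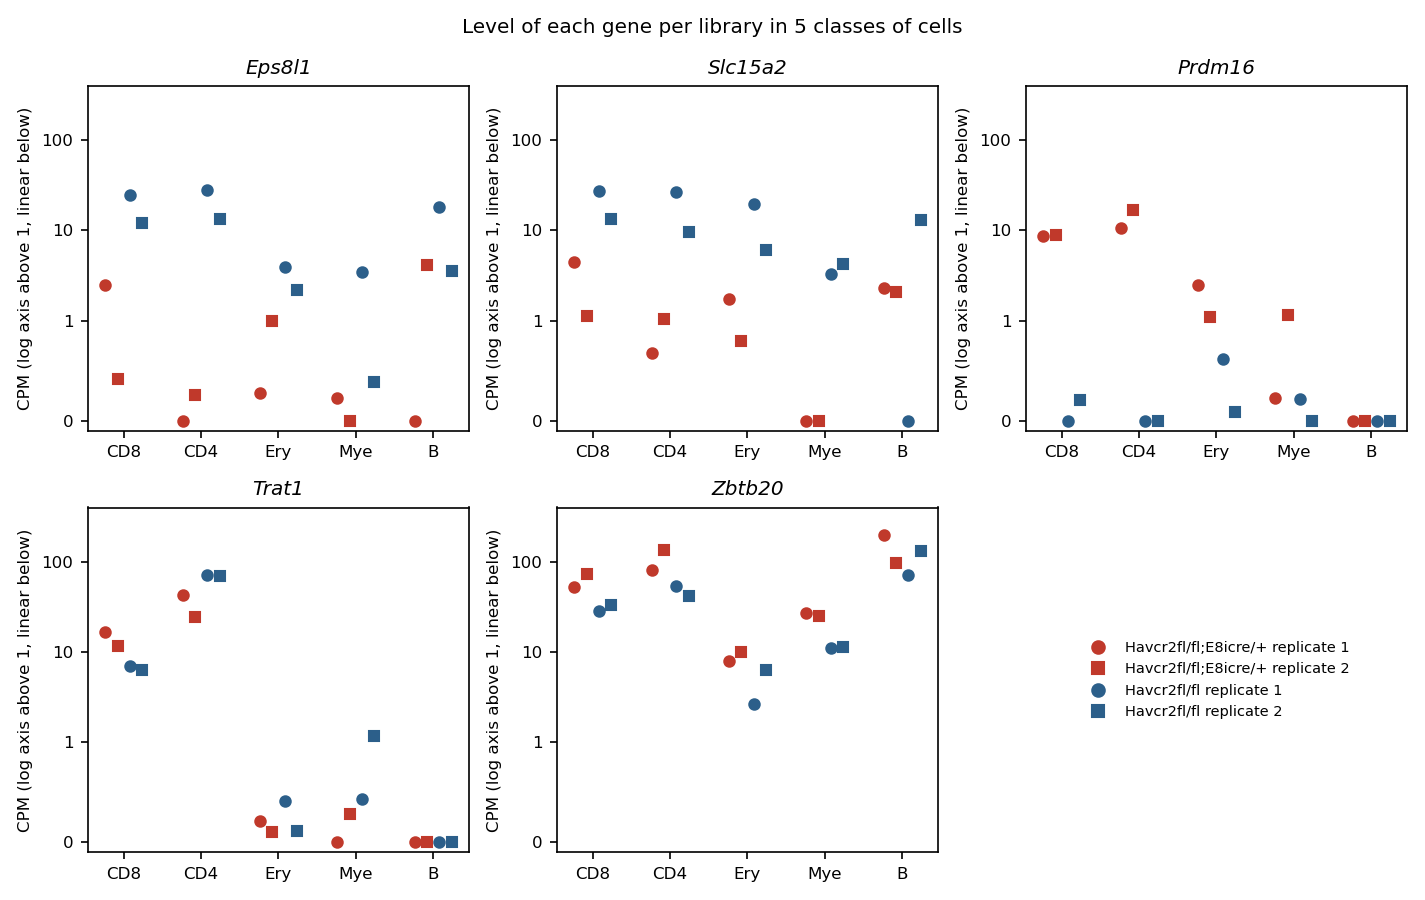
Level of each member (y axis, CPM; linear below 1 and logarithmic above) in each library (1 point per mouse) in CD8+ Tc (CD8), CD4+ Tc (CD4), erythroid-like (Ery), myeloid-like (Mye) and B-like (B) cells. Eps8l1, Slc15a2, Prdm16 and Zbtb20 parted the genotypes in all but the B-like cells, with few UMIs of Eps8l1 and Prdm16 in myeloid-like cells. Trat1 was at or under 1.17 CPM in the erythroid-like, myeloid-like and B-like cells.

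Slc15a2 was lower in the Havcr2fl/fl;E8icre/+ libraries in each of the 5 classes but the B-like cells. In CD8+ Tc it was at 4.48 and 1.12 CPM in Havcr2fl/fl;E8icre/+ replicates 1 and 2 and at 27.1 and 13.4 CPM in Havcr2fl/fl replicates 1 and 2. In CD4+ Tc the values were 0.673 and 1.03 CPM against 26.9 and 9.59 CPM. The groups did not overlap in either kind of Tc. In erythroid-like cells Slc15a2 was at 1.74 and 0.795 CPM against 19.5 and 6.09 CPM, from 25, 8, 95 and 208 UMIs. In myeloid-like cells it had 0 UMIs in both Havcr2fl/fl;E8icre/+ libraries and 15 and 11 UMIs in the controls, which makes it at least 9.45-fold higher in the controls when 3 counts are allowed over the Havcr2fl/fl;E8icre/+ group. In B-like cells the libraries overlapped, with 1, 1, 0 and 11 UMIs. The log2 fold change of Havcr2fl/fl;E8icre/+ over Havcr2fl/fl was -2.84 (SE 0.51) in CD8+ Tc, -4.40 (SE 0.64) in CD4+ Tc and -3.45 (SE 0.72) in erythroid-like cells, with 2 mice per genotype. Without the library labelled Havcr2fl/fl;E8icre/+ replicate 1 the values were -4.13, -4.13 and -4.03. Without Havcr2fl/fl;E8icre/+ replicate 2 the CD8+ value was -2.24. Without Havcr2fl/fl replicate 1 the values were -2.25 in CD8+ Tc, -3.45 in CD4+ Tc and -2.28 in erythroid-like cells.

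Eps8l1 showed the same direction. In CD8+ Tc it was at 2.46 and 0.419 CPM in the Havcr2fl/fl;E8icre/+ libraries and at 24.8 and 12.0 CPM in the controls, from 22, 3, 99 and 58 UMIs. In CD4+ Tc there were 0 and 1 UMIs against 42 and 14 UMIs, or 0 and 0.258 CPM against 28.2 and 13.4 CPM. Pooled over the mice of a genotype, the CD4+ ratio of Havcr2fl/fl;E8icre/+ to Havcr2fl/fl was 0.0066, with an exact 95% counting interval from 0.000164 to 0.0383. The libraries of the genotypes were fully apart in both kinds of Tc. Erythroid-like cells held less of it, at 0.279 and 0.994 CPM against 3.91 and 2.17 CPM, and still did not overlap. Myeloid-like cells held 1, 0, 16 and 1 UMIs, so that the gap there rests on Havcr2fl/fl replicate 1. The log2 fold change was -3.62 (SE 0.57) in CD8+ Tc, -6.79 (SE 0.77) in CD4+ Tc and -2.38 (SE 0.79) in erythroid-like cells. Without the library labelled Havcr2fl/fl;E8icre/+ replicate 1 these were -5.36, -6.09 and -1.61. The CD8+ value was -2.96 without Havcr2fl/fl;E8icre/+ replicate 2 and -3.02 without Havcr2fl/fl replicate 1.

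Prdm16 went the other way. It was close to absent from control Tc, with 0 and 1 UMIs in the CD8+ and 0 and 0 UMIs in the CD4+ Tc of Havcr2fl/fl replicates 1 and 2. In Havcr2fl/fl;E8icre/+ replicates 1 and 2 it had 78 and 63 UMIs in CD8+ Tc (8.74 and 8.81 CPM) and 32 and 66 UMIs in CD4+ Tc (10.8 and 17.0 CPM). Both Havcr2fl/fl;E8icre/+ libraries were thus at a like level in CD8+ Tc. Their Havcr2 counts differed there, and whether Prdm16 follows the deletion was not tested. Pooled over mice, Prdm16 was 77.5-fold higher in Havcr2fl/fl;E8icre/+ CD8+ Tc, with an exact 95% counting interval from 13.7 to 3082. In CD4+ Tc it was at least 12.1-fold higher when 3 counts are allowed over the control group. Intervals and bounds cover counting error only and not the spread between mice. Erythroid-like cells held 36 and 11 UMIs against 3 and 3 UMIs, or 2.51 and 1.09 CPM against 0.617 and 0.0879 CPM, without overlap. Most of these UMIs lay in erythroid cluster 0, with 32 and 9 against 1 and 3. Erythroid cluster 7 held 3 and 2 against 0 and 0, and cluster 6 held 0 and 0 against 2 and 0. The libraries differed in their mix of clusters, with 335, 131, 54 and 1131 cells in cluster 0, so the class sums depend on it. Myeloid-like cells held 1, 4, 1 and 0 UMIs, and no B-like cell of any library held a Prdm16 UMI. The fitted log2 fold changes, which depend on the prior count where a group is at or near 0, were 6.02 (SE 0.69) in CD8+ Tc, 8.04 (SE 1.2) in CD4+ Tc and 3.01 (SE 1.1) in erythroid-like cells. Without the library labelled Havcr2fl/fl;E8icre/+ replicate 1 they were 6.03, 8.19 and 2.17, and without Havcr2fl/fl replicate 2 the erythroid-like value was 1.26. With doublets taken out at the rate expected from the number of barcodes, Prdm16 had no fitted value in erythroid-like cells.

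Zbtb20 had UMIs in every library of the 5 classes and had a mean CPM 2.02 to 2.35 times as high in Havcr2fl/fl;E8icre/+ as in Havcr2fl/fl libraries in the CD8+, CD4+, erythroid-like and myeloid-like classes. In CD8+ Tc it was at 52.3 and 72.4 CPM against 28.3 and 33.4 CPM, and in CD4+ Tc at 80.8 and 135 CPM against 54.5 and 41.2 CPM. In myeloid-like cells it was at 26.9 and 25.3 CPM against 10.9 and 11.3 CPM. The libraries of the genotypes did not overlap in these 3 classes. Within the myeloid-like cells, cluster 12 was without overlap, at 25.1 and 25.0 CPM against 5.37 and 10.8 CPM. Cluster 15 overlapped, at 38.5 and 27.5 CPM against 30.1 and 16.2 CPM. The libraries held 82, 49, 71 and 47 cells of cluster 15, so the myeloid-like sum of Zbtb20 depends on the mix of clusters. In erythroid-like cells it was at 8.01 and 10.0 CPM against 2.67 and 6.27 CPM, and in B-like cells the groups overlapped at 201 and 96.3 CPM against 72.2 and 132 CPM. The log2 fold change was 0.98 (SE 0.23) in CD8+ Tc, 1.12 (SE 0.29) in CD4+ Tc and 0.81 (SE 0.37) in erythroid-like cells. They were 1.24, 1.47 and 1.09 without the library labelled Havcr2fl/fl;E8icre/+ replicate 1, and 0.68, 0.66 and 0.53 without Havcr2fl/fl;E8icre/+ replicate 2. In erythroid-like cells the value was 0.48 without Havcr2fl/fl replicate 1 and 1.480 without Havcr2fl/fl replicate 2.

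Trat1 was the exception, because its direction turned between the 2 kinds of Tc. In CD8+ Tc it was at 16.6 and 11.7 CPM in the Havcr2fl/fl;E8icre/+ libraries and at 7.02 and 6.39 CPM in the controls. In CD4+ Tc it was at 42.8 and 24.3 CPM in the Havcr2fl/fl;E8icre/+ libraries and at 71.9 and 69.1 CPM in the controls. Neither pair overlapped, so Trat1 was higher in Havcr2fl/fl;E8icre/+ CD8+ Tc and lower in Havcr2fl/fl;E8icre/+ CD4+ Tc. The log2 fold change was 1.04 (SE 0.28) in CD8+ Tc and -1.14 (SE 0.26) in CD4+ Tc. Without the library labelled Havcr2fl/fl;E8icre/+ replicate 1 the CD8+ value was 0.82 and the CD4+ value -1.55, and without Havcr2fl/fl;E8icre/+ replicate 2 it was -0.81. The CD4+ level was 2.58 and 2.07 times the CD8+ level in the Havcr2fl/fl;E8icre/+ libraries and 10.2 and 10.8 times in the controls. Outside the Tc it was near absent, with 3, 1, 2 and 4 UMIs in erythroid-like cells, 0, 1, 2 and 3 in myeloid-like cells and 0 in B-like cells.

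**Figure D2:**
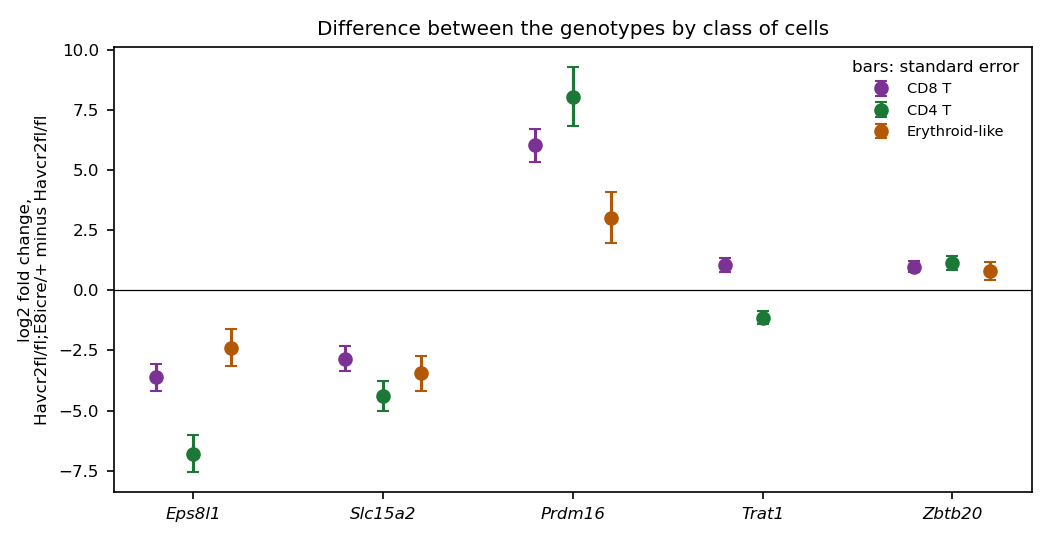
Log2 fold change of Havcr2fl/fl;E8icre/+ over Havcr2fl/fl libraries (y axis) for each member (x axis) in CD8+ Tc, CD4+ Tc and erythroid-like cells; bars are standard errors of the edgeR fit with 2 mice per genotype. Eps8l1 and Slc15a2 lie below 0 and Prdm16 and Zbtb20 above 0 in all 3 fits, while Trat1 lies at 1.04 in CD8+ Tc and at -1.14 in CD4+ Tc and was not fitted in erythroid-like cells.

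The libraries of the genotypes did not overlap for 5 of 5 members in CD8+ Tc, 5 in CD4+ Tc, 4 in erythroid-like cells, 5 in myeloid-like cells and 0 in B-like cells. The share of all filtered genes without overlap was 26.8% in CD8+ Tc, 31.3% in CD4+ Tc, 28.5% in erythroid-like, 28.6% in myeloid-like and 37.6% in B-like cells. The members were chosen for this parting, so nothing is read from their count. Of the 5 members, 5 passed the filter on low counts in CD8+ Tc, 5 in CD4+ Tc, 4 in erythroid-like, 2 in myeloid-like and 1 in B-like cells. A gene such as Prdm16 passed only through the group where it is high. Eps8l1, Prdm16 and Trat1 did not pass in myeloid-like cells, so the share over filtered genes is not a like measure for them. Prdm16 was there at 0.232 and 1.15 CPM against 0.219 and 0 CPM, and Trat1 had 0, 1, 2 and 3 UMIs.

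Across all genes few passed an adjusted p of 0.05 in the edgeR quasi-likelihood test. In CD8+ Tc 3 of 10897 genes did (0.0275%), 2 of them higher (0.0184%) and 1 lower (0.00918%) in Havcr2fl/fl;E8icre/+ libraries, in CD4+ Tc 1 of 9680 (0.0103%) and in erythroid-like cells 3 of 10767 (0.0279%). These were Prdm16, Tigit and Xlr in CD8+ Tc, Eps8l1 in CD4+ Tc and Aldh1l1, Rbm44 and Xlr in erythroid-like cells, and those outside the members are named after their values were seen. Prdm16 and Eps8l1 were chosen on this same contrast, so nothing is read from their being called. DESeq2 also called 3 genes in CD8+ Tc, with Slc15a2 but not Prdm16 among them. The Prdm16 call was absent as well with the replicate number as a block. The number of genes past the threshold rested on single libraries. Without the library labelled Havcr2fl/fl;E8icre/+ replicate 1 it was 33 of 10997 in CD8+ Tc, 29 of 9308 in CD4+ Tc and 7 of 10920 in erythroid-like cells. With any 1 library left out it ran from 0 to 33 in CD8+ Tc, from 5 to 29 in CD4+ Tc and from 0 to 7 in erythroid-like cells.

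The difference between CD8+ and CD4+ Tc of the same mice was not used to choose the members and was tested. It was fitted in edgeR with the library as a block over 10332 genes, of which 2502 (24.2%) passed an adjusted p of 0.05. Trat1 was lower in CD8+ Tc, with a log2 difference of -1.98 (SE 0.31, adjusted p = 0.000428), and was lower in 4 of 4 mice. The fit took 1 difference for both genotypes. The CD4+ level of Trat1 was 2.58 and 2.07 times the CD8+ level in Havcr2fl/fl;E8icre/+ mice and 10.2 and 10.8 times in controls. The value of -1.98 therefore describes neither genotype alone. Zbtb20 was lower in CD8+ Tc by a log2 difference of -0.68 (SE 0.092, adjusted p = 0.000113), again in 4 of 4 mice. The Zbtb20 call was lost without the block (adjusted p = 0.228). The other members did not pass: Prdm16 was at -0.58 (SE 0.26, adjusted p = 0.131), Slc15a2 at 0.49 (SE 0.30, adjusted p = 0.273) and Eps8l1 at 0.16 (SE 0.35, adjusted p = 0.799). Prdm16 had 0 or 1 UMI in each control sum, so its difference rests on the 2 Havcr2fl/fl;E8icre/+ mice. In Havcr2fl/fl;E8icre/+ CD4+ Tc Slc15a2 had only 2 and 4 UMIs and Eps8l1 0 and 1. For these 3 members the lack of a call therefore says little. Without the library labelled Havcr2fl/fl;E8icre/+ replicate 1, in which Eps8l1 had 22 UMIs in CD8+ Tc and 0 in CD4+ Tc, the Eps8l1 difference was -0.10.

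Ordered by their mean level within a genotype, the classes differed between members. In the controls Slc15a2 was at 20.2 CPM ± 9.7 (SD, n = 2) in CD8+ Tc, 18.2 ± 12.2 in CD4+ Tc, 12.8 ± 9.5 in erythroid-like, 6.53 ± 9.2 in B-like and 3.78 ± 0.71 in myeloid-like cells, and each class overlapped the next. Control Eps8l1 ran from 20.8 CPM ± 10.5 in CD4+ Tc and 18.4 ± 9.1 in CD8+ Tc through B-like and erythroid-like cells to 1.95 ± 2.2 in myeloid-like cells, again with overlap at each step. In Havcr2fl/fl;E8icre/+ mice Prdm16 was highest in CD4+ Tc (13.9 CPM ± 4.4), then CD8+ Tc (8.77 ± 0.050) and erythroid-like cells (1.80 ± 1.0), with no overlap between these 3. Control Zbtb20 fell in steps without overlap from B-like cells (102 CPM ± 42.2) through CD4+ Tc, CD8+ Tc and myeloid-like cells to erythroid-like cells (4.47 ± 2.5). The Havcr2fl/fl;E8icre/+ libraries had the same order, but their B-like cells and CD4+ Tc overlapped. Trat1 was highest in CD4+ Tc and then CD8+ Tc in both genotypes, each apart from the next class.

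The spleens also held 366 stem or progenitor-like cells, in which the members were counted in the same way. Slc15a2 had 2, 1, 15 and 22 UMIs there, Eps8l1 had 4, 2, 6 and 15, and Prdm16 had 3, 3, 0 and 0. By level Slc15a2 was at 0.702 and 0.530 CPM against 16.6 and 7.76 CPM. Zbtb20 was at 74.4 and 73.2 CPM against 67.6 and 31.0 CPM, so that Havcr2fl/fl replicate 1 lay close to the Havcr2fl/fl;E8icre/+ libraries. In Tc with UMIs of neither or both coreceptors Zbtb20 was at 110 and 121 CPM against 49.5 and 35.8 CPM and Prdm16 at 11.9 and 9.70 CPM against 1.60 and 0 CPM. Trat1 overlapped in these cells, at 41.8 and 25.4 CPM against 12.8 and 59.1 CPM.

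Droplets hold free RNA, so a gene of the Tc can be counted in an erythroid droplet. UMIs of Cd3e, Cd3d, Cd3g, Trac and Trbc2 were used as a measure of Tc RNA in the other classes. In erythroid-like cells they made up 13.1 to 89.5 CPM. If all Slc15a2 UMIs there had come with Tc RNA at the ratio seen in the Tc of the same library, 0.666, 0.0821, 1.77 and 0.857 UMIs would have been counted, against the 25, 8, 95 and 208 found. For Prdm16 the implied counts were 1.84 and 0.972 UMIs in the Havcr2fl/fl;E8icre/+ libraries, against 36 and 11 found, and for Eps8l1 they were 1.76 and 0.797 in the controls, against 19 and 74. For Trat1 they were 4.80, 1.45, 1.59 and 1.40 UMIs, against 3, 1, 2 and 4 found. In erythroid-like cells the counts of Eps8l1, Slc15a2, Prdm16 and Zbtb20 exceeded the implied counts in 4 of 4 libraries, and those of Trat1 in 2 of 4. Prdm16 was implied at only 0.0111 and 0.00996 UMIs in the controls, against 3 and 3 found. Eps8l1 was implied at 0.370 and 0.0411 in the Havcr2fl/fl;E8icre/+ libraries, against 4 and 10. Any UMI exceeds such a count, so nothing is read from the excess there. The measure covers Tc RNA only and not free RNA of other cells. In myeloid-like cells Zbtb20 had 116, 88, 50 and 29 UMIs against 2.59, 3.56, 5.20 and 0.892 implied, and Slc15a2 had 15 and 11 UMIs in the controls against 3.70 and 0.337. Trat1 had 0, 1, 2 and 3 UMIs there against 1.00, 0.628, 3.30 and 0.552 implied.
With erythroid-like cells limited to those without any UMI of these Tc genes, Slc15a2 remained at 1.60 and 0.827 CPM against 20.1 and 6.15 CPM. Prdm16 was at 2.40 and 0.689 CPM against 0.795 and 0.0991 CPM, so that its groups then overlapped. Trat1 had 0, 0, 0 and 2 UMIs in these cells. Myeloid-like cells limited in the same way held 0, 2, 1 and 0 UMIs of Prdm16 and 0, 0, 1 and 0 of Trat1, so that the groups of these members overlapped there.

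**Figure D3:**
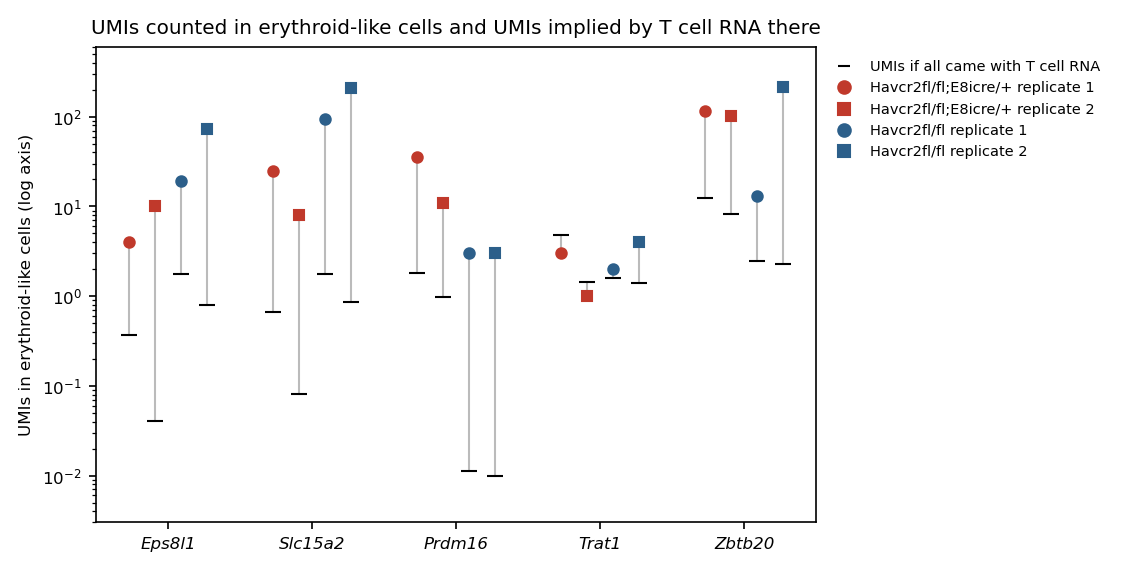
UMIs of each member counted in erythroid-like cells of each library (points, logarithmic y axis) and the UMIs that would be there if all had come with Tc RNA (black dashes). The points of Eps8l1, Slc15a2, Prdm16 and Zbtb20 lie above their dashes in 4 of 4 libraries, and those of Trat1 lie on both sides of theirs. Where the Tc of a library held almost none of a gene, any UMI lies above the dash.

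Within the Tc, the members were left out of the genes used for clustering, and their levels were compared in each of 11 T clusters. Prdm16 and Zbtb20 were higher in both Havcr2fl/fl;E8icre/+ libraries than in both controls in 11 of 11 clusters. Some of these gaps rest on few UMIs. Prdm16 had 1, 3, 1 and 0 UMIs in cluster 8, where the nearest libraries were at 1.29 and 1.24 CPM. In cluster 21 it had 1, 1, 0 and 0 UMIs, and Zbtb20 had 3, 4, 0 and 0. Slc15a2 was lower without overlap in 10 clusters and Eps8l1 in 9, and in the clusters that overlapped a control library held 0 UMIs of the gene. One of these, cluster 21, held 40 cells, 1 of them from Havcr2fl/fl replicate 1. The highest mean level of Zbtb20 among the T clusters was in cluster 2, which was led by Slamf6, Tcf7 and Il7r, at 176 and 198 CPM against 88.0 and 77.8 CPM. Prdm16 reached its highest level in cluster 14, whose leading genes include Foxp3 and Il2ra, at 22.2 and 30.1 CPM against 0 and 0 CPM. Cells of a cluster come from the same 4 mice, so the clusters are not further replicates. The members were chosen for parting the genotypes, and the share of all genes was not counted by cluster. Nothing is therefore read from the counts of clusters.
Trat1 had no single direction over the clusters. It was higher without overlap in clusters 1, 5, 8 and 9 and lower without overlap in clusters 2, 13 and 14. Some gaps on the higher side were narrow or rested on few UMIs. The nearest libraries were at 28.5 and 27.8 CPM in cluster 1 and at 27.7 and 26.9 CPM in cluster 9. In cluster 5 Trat1 had 16, 6, 3 and 1 UMIs. Il7r was among the leading genes of clusters 2, 13 and 14, but also of cluster 4, where Trat1 overlapped at means of 12.9 and 13.0 CPM. Ccl5 or Gzma was among those of clusters 1, 5, 8 and 9, but also of clusters 3, 10 and 21, where Trat1 overlapped too. In cluster 2 it was at 25.1 and 17.4 CPM against 40.0 and 65.6 CPM, and in cluster 13 at 19.6 and 30.7 CPM against 72.9 and 90.4 CPM. In cluster 8 it was at 28.4 and 33.4 CPM against 17.4 and 17.2 CPM.

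**Figure D4:**
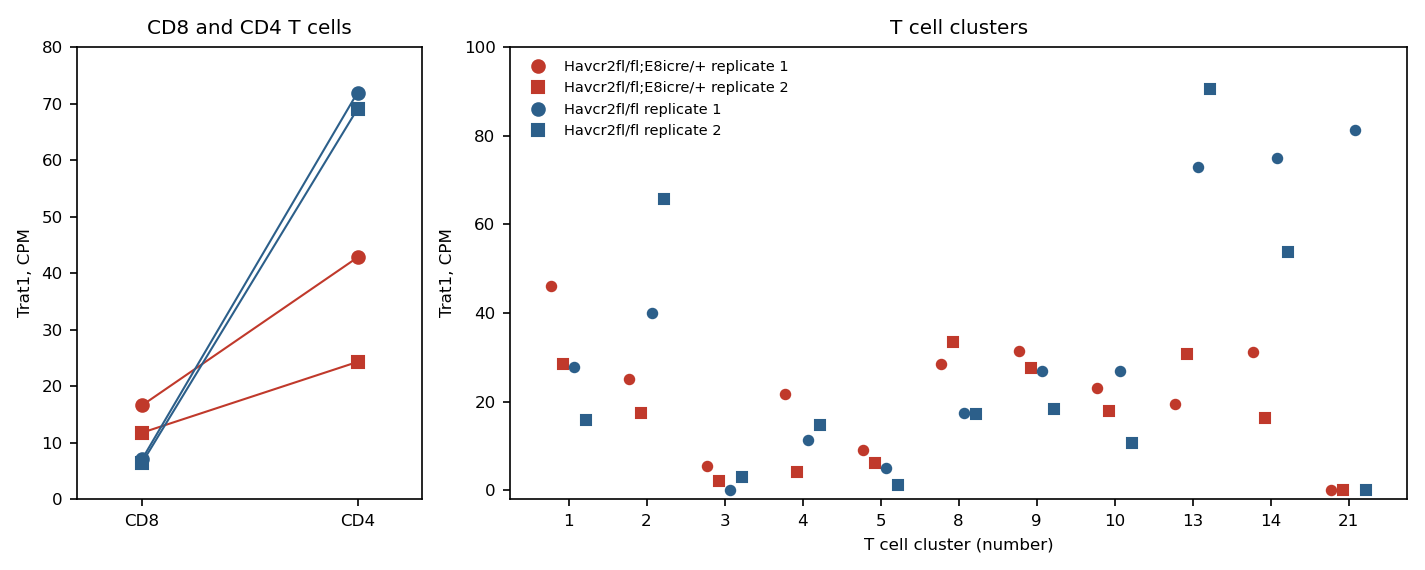
Trat1 level (y axis, CPM) of each mouse in CD8+ and CD4+ Tc, joined by lines (left), and in the 11 T clusters by number (right). The Havcr2fl/fl;E8icre/+ libraries lie above the controls in CD8+ Tc (16.6 and 11.7 against 7.02 and 6.39 CPM) and below them in CD4+ Tc.

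Since the library labelled Havcr2fl/fl;E8icre/+ replicate 1 held Havcr2 at a control level, its CD8+ Tc were looked at with and without a Havcr2 UMI, a split chosen after the data were seen. The 285 cells with a Havcr2 UMI held Slc15a2 at 14.8 CPM and the 1254 cells without one at 1.32 CPM. In the controls Slc15a2 was at 21.3 and 10.3 CPM in cells with a Havcr2 UMI and at 29.4 and 14.9 CPM in those without. The Havcr2-positive cells of this library thus lay within the control values for Slc15a2, and the others did not. Eps8l1 was at 5.26 CPM in its cells with and 1.61 CPM in its cells without a Havcr2 UMI, both under the controls. Zbtb20 was at 19.6 CPM with and 62.3 CPM without a Havcr2 UMI in this library. Control cells were at 21.3 and 24.4 CPM with and at 31.1 and 37.7 CPM without a Havcr2 UMI. Zbtb20 was thus lower in the cells with a Havcr2 UMI in both controls as well. Prdm16 was at 11.9 CPM with and 7.75 CPM without a Havcr2 UMI, while control cells with a Havcr2 UMI had 0 Prdm16 UMIs. Trat1 had 4, 1 and 2 UMIs in the cells with a Havcr2 UMI of Havcr2fl/fl;E8icre/+ replicate 1 and Havcr2fl/fl replicates 1 and 2, and 144, 27 and 29 UMIs in the cells without one. That is 1.91, 0.887 and 1.28 CPM against 21.1, 9.44 and 8.82 CPM. These are sums over cells of 1 mouse each, without a test, and cells with a UMI of one gene are also the deeper ones. A Havcr2 UMI, or the lack of one, does not show whether Havcr2 was deleted in a cell. In Havcr2fl/fl;E8icre/+ replicate 1 cluster 5 held 40% of the Slc15a2 UMIs of CD8+ Tc and 19.2% of these cells. Whether the split follows the kind of CD8+ Tc was not tested. Havcr2fl/fl;E8icre/+ replicate 2 had 38 CD8+ Tc with a Havcr2 UMI, with 0 to 2 UMIs of Eps8l1, Slc15a2, Prdm16 and Trat1, too few to place those 4 members. Zbtb20 had 18 UMIs in these cells, or 53.5 CPM, above the controls and above the 19.6 CPM of replicate 1.

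**Figure D5:**
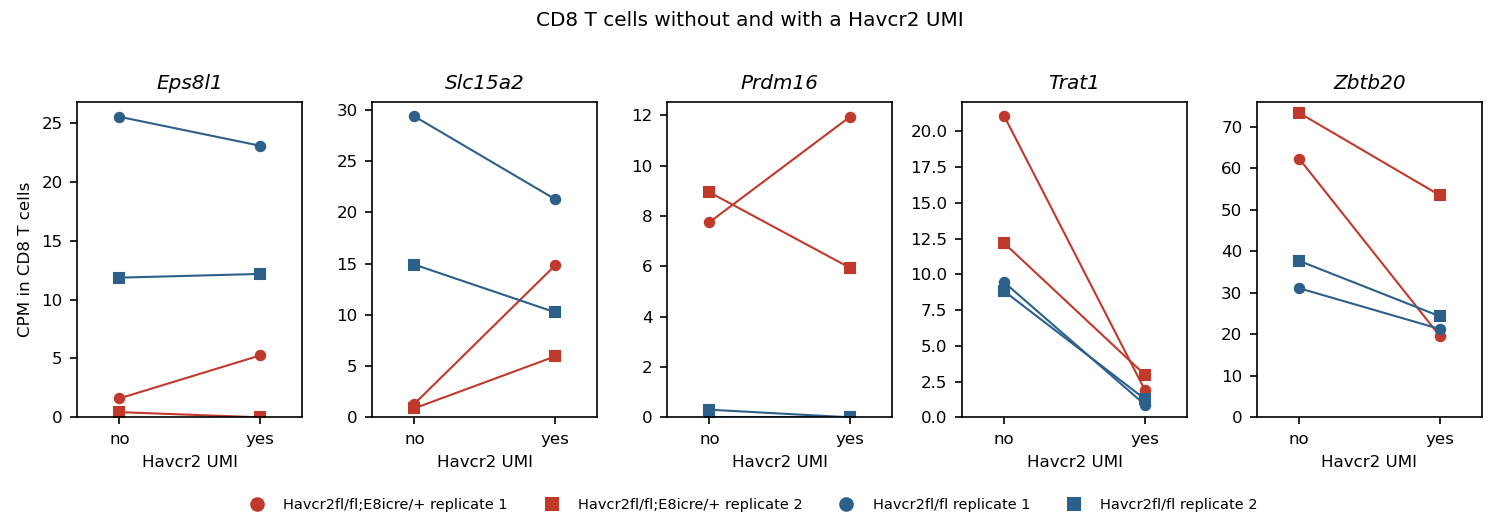
Level of each member (y axis, CPM, each panel with its own scale from 0) in CD8+ Tc without and with a Havcr2 UMI, 1 line per mouse. In Havcr2fl/fl;E8icre/+ replicate 1 Slc15a2 goes from 1.32 to 14.8 CPM and Zbtb20 from 62.3 to 19.6 CPM, while Prdm16 stays above both controls. Zbtb20 also falls in the controls, from 31.1 to 21.3 and from 37.7 to 24.4 CPM.

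Genes starting within 5 Mb of a member were also counted, without the members. Over the stretch of chromosome 16 around Slc15a2, Zbtb20 and Trat1, edgeR called 1 of 90 tested genes in CD8+ Tc, 0 of 83 in CD4+ Tc and 0 of 83 in erythroid-like cells. At an unadjusted p under 0.05 there were 3, 5 and 6, or 3.33%, 6.02% and 7.23%, beside 2.57%, 3.16% and 4.65% of all genes. Around Prdm16 edgeR called 0 of 71, 63 and 67 genes, with 6, 2 and 4 (8.45%, 3.17% and 5.97%) at an unadjusted p under 0.05. Around Eps8l1 it called 0 of 44, 35 and 43, with 2, 0 and 2 (4.55%, 0% and 4.65%). The shares of all genes are those given for chromosome 16. DESeq2 called 1 gene in the chromosome 16 stretch, in CD8+ Tc, and 0 around Prdm16 and Eps8l1.
The gene called on chromosome 16 was Tigit, an inhibitory receptor of Tc, whose start is 0.788 Mb from that of Zbtb20. It was at 4.07 and 4.02 CPM in Havcr2fl/fl;E8icre/+ and 22.7 and 21.5 CPM in Havcr2fl/fl CD8+ Tc (TMM-scaled), with a log2 fold change of -2.44 (SE 0.25, edgeR adjusted p = 0.0139). In CD4+ Tc its log2 fold change was 0.96 (SE 0.34, edgeR adjusted p = 1.00). Tigit, like Trat1, thus had opposite signs in the 2 kinds of Tc, and the difference between them was not tested. The median log2 fold change over the chromosome 16 stretch was 0.050 in CD8+ Tc, beside -0.0040 for all genes.

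Of the relatives of the members, none passed the test between genotypes. Of 16 other genes of the T cell receptor complex and its adaptors, edgeR called 0 between genotypes in CD8+ Tc, CD4+ Tc and erythroid-like cells, with 0, 1 and 0 at an unadjusted p under 0.05 and 0 by DESeq2. Their median log2 fold change was -0.10 in CD8+ and -0.08 in CD4+ Tc. Of 18 ZBTB factors 16, 15 and 14 were tested and 0 called by either tool, with 0, 0 and 1 at an unadjusted p under 0.05. Of 9 PRDM factors 8, 5 and 6 were tested and 0 called by either tool, with none at an unadjusted p under 0.05. Of 4 SLC15 transporters 2, 2 and 1 were tested and 0 called, with 1, 0 and 0 at an unadjusted p under 0.05. None of 3 other EPS8 genes passed the filter on low counts.
Between CD8+ and CD4+ Tc 11 of the 16 T cell receptor genes passed the edgeR test, 6 higher and 5 lower in CD8+ Tc. Grap2, an adaptor that binds SLP-76, rose by a log2 difference of 1.00 (SE 0.062, adjusted p = 9.94e-08), and Cd247, the zeta chain, was at -0.70 (SE 0.056, adjusted p = 1.04e-06). Lcp2, which encodes SLP-76, was at -0.34 (SE 0.055, adjusted p = 0.000501). Of the ZBTB factors 1 was higher and 2 were lower, among them Zbtb7b, the CD4 lineage factor ThPOK, at -2.08 (SE 0.13). Of the PRDM factors Prdm11 was higher, at 1.14 (SE 0.34), and of the SLC15 transporters Slc15a3 was lower, at -2.20 (SE 0.28).

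Likeness of pattern was measured as Pearson's r of log2(CPM + 1), centred on the mean of each class, over the 20 sums of 5 classes and 4 libraries, among 11046 genes with at least 5 CPM in a class. The sums of a library share its depth and its mouse, and genes compared in this way are not independent. Centring on the class leaves the differences between libraries, among them the genotype gap for which the members were chosen. Nothing is therefore read from r between members. The genes most like Slc15a2 were Nmt1 (r = 0.90), Rsrp1 (0.84) and Rbm3 (0.82), and those most like Zbtb20 were Gnaq (0.89), Washc4 (0.87) and Xlr (0.86). Prdm16 was closest to Nrp2 (0.81), Kif13a (0.81) and Cxcr5 (0.80), and Eps8l1 to Bst1 (0.78), Enho (0.75) and Myl12b (0.75). Trat1 had the least close neighbours, Actn2 (0.70), Bik (0.69) and Cpm (0.63). Among the members, Eps8l1 was at 0.63 with Slc15a2, at -0.81 with Prdm16 and at -0.82 with Zbtb20. Trat1 was between -0.37 and 0.31 with each of the other 4.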

How the data were processed

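Spleen cells of 4 mice were profiled with 10x 3′ v3.1 chemistry, 1 library per mouse. The authors deposited raw UMI counts per gene and barcode from Cell Ranger 6.1.2 with build mm10, per the submitters' processing notes; the annotation is not given in the sources used here. Of 15784 barcodes, those under 500 genes or under 1000 UMIs, or over 10% mitochondrial UMIs, were dropped, which left 11632. A further 125 that Scrublet called doublets were taken out. They were unevenly spread, with 2 and 5 in Havcr2fl/fl;E8icre/+ replicates 1 and 2 and 9 and 109 in Havcr2fl/fl replicates 1 and 2. The rate expected from the number of barcodes would give 119, 65, 15 and 239 doublets in the same order. The cells were clustered in Seurat 5.3.0 with the members left out of the variable genes, and clusters were named from marker lists, so class names can differ from the study's. T cluster cells counted as CD8+ where UMIs of Cd8a or Cd8b1 but none of Cd4 were seen, and as CD4+ in the reverse case. Counts were summed per library and class and tested across libraries with edgeR 4.0.16 (quasi-likelihood, TMM, Benjamini-Hochberg adjustment over all genes), with DESeq2 1.42.0 as an alternative. CD8+ and CD4+ Tc of the same mice were compared with the library as a block. The scripts were tested on simulated data. CPM are UMIs per 1000000 UMIs of the class, unless named TMM-scaled. The labels do not say whether mice of a group were processed separately, so p-values measure only the spread between these libraries. The members, gene lists and rules were chosen with earlier results of these data known. The named genes are the members, Havcr2, 5 sex-linked genes, the genes past the threshold within 5 Mb of one, relatives past the threshold and the 3 genes most like each member. Python 3.11.15 and R 4.3.3 were used.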

Additional observations from a re-analysis of the deposited data

Results flagged for a closer look

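Trat1 moved in opposite directions in the 2 kinds of T cells of the same mice. Its log2 fold change of Havcr2fl/fl;E8icre/+ over Havcr2fl/fl was 1.04 in CD8+ Tc and -1.14 in CD4+ Tc, and the libraries of the genotypes did not overlap in either. The difference between the 2 changes was not tested.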

How the results depend on the processing

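Few calls between genotypes were stable in number. In CD8+ Tc the count of genes past the threshold was 3, with 84 without a filter on low counts, 0 with the replicate number as a block and 0 to 33 with a library left out, 33 of them without the library labelled Havcr2fl/fl;E8icre/+ replicate 1. In CD4+ Tc it was 1, with 0 when doublets were set by the expected rate, under the stricter cell filter or with DESeq2 size factors, 55 without the filter, 5 with the replicate block, 5 by DESeq2 and 5 to 29 with a library left out. In erythroid-like cells it was 3, with 98 without the filter, 0 with the replicate block, 13 by DESeq2 and 0 to 7 with a library left out. Same-numbered libraries correlated at -0.11, -0.09 and -0.28 in their deviations from the group means, so they were not taken as pairs. The labels do not say what the numbers stand for. Crossed pairing, chosen after seeing the data, gave 60 in CD8+ Tc and 19 in erythroid-like cells. The count between CD8+ and CD4+ Tc was 2502, with 1024 without the library block, 1501 by DESeq2 and 1716 to 2187 with a library left out. The B-like count of members without overlap went from 0 to between 0 and 3 with a library left out. A lack of overlap is easier to reach with 1 library in a group, and the share of all genes was not counted there. Nothing is therefore read from this count. The Zbtb20 difference between CD8+ and CD4+ Tc was -0.74 without the library block and no longer passed, and that of Eps8l1, with a library left out, ran from -0.10 (without the library labelled Havcr2fl/fl;E8icre/+ replicate 1) to 0.62. Of 153 member fold changes between genotypes under the alternatives, 24 moved by more than their spread and 0 changed sign. The members were chosen for parting the genotypes, and their libraries did not overlap in the fitted classes. Refits of the same counts could therefore hardly turn a sign, and nothing is read from the lack of a change. B-like cells, 2 in 1 library, limit what can be read there. The cause of these shifts was not tested.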
